A study of Homo sapiens with 4 samples.

Results

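The 10 genes described here comprise 9 that act at the step at which a cell leaves G1 phase, and a neighbour of the INK4 locus. They are the D-type cyclin genes CCND1, CCND2 and CCND3, the kinase genes CDK4 and CDK6, the pocket protein gene RB1, the INK4 inhibitor genes CDKN2A, CDKN2B and CDKN2C, and MTAP, an enzyme gene beside CDKN2A at 9p21. They were selected by gene symbol from the 57905 genes of the deposited table, on their function and with their counts in these libraries already known, so their own values are a description and carry no test. RNA was sequenced from A549, an established line of human lung adenocarcinoma cells, in 4 conditions with 1 library each. The conditions were a scramble control hairpin (sc), a hairpin against DCBLD2 (shDCBLD2), an empty vector, and a vector for DCBLD2 overexpression, whose library is written as the library labelled OE. DCBLD2 codes for a transmembrane receptor-like protein. According to the methods, both kinds of construct were delivered by lentivirus: the coding sequence of DCBLD2 stood behind an EF1 promoter with blasticidin selection, and the hairpins stood behind an H1 promoter in a plasmid with puromycin resistance, for which no selection is described. The empty vector and sc lines are therefore controls of different constructs and not replicates of each other. Where the paper reports the sequencing, it calls the cells with the overexpression or empty vector transfected and names no virus. The shDCBLD2 library is titled shD5, while the methods number the hairpins kept for use 1 and 2. The sources used here do not state which of them it carried, or whether the lines were clones.

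Cells enter S phase through the RB pathway. D-type cyclins bind CDK4 or CDK6, and the complex phosphorylates the RB1 protein, which then releases the E2F factors that switch on genes for DNA replication. INK4 proteins bind CDK4 and CDK6 and keep the cyclins away. CDKN2A codes for the INK4 protein p16 and, from another start and in another reading frame, for ARF, which holds back MDM2. A549 is known to have lost this stretch of 9p21, and MTAP, which recycles a by-product of polyamine synthesis to methionine, is often lost with CDKN2A in lung tumours.

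Counts on genes came to 19104052 in sc, 21537283 in shDCBLD2, 18718562 in the empty vector library and 16601633 in the library labelled OE. Levels are given as counts, as CPM (counts relative to the library total) after scaling by edgeR's TMM factors, or, between genes, as deposited FPKM, which also divides by exonic gene size. Intervals are 95% intervals that cover counting error only, exact Poisson for a level and exact Clopper-Pearson for a ratio or share. As each condition has a single library, there is no replicate check and no p-value, and each comparison is of libraries and not of conditions. A gene was called when its log2 ratio, taken with a prior count of 2, reached 2-fold in either direction with an interval clear of 0, among the 13966 genes with a mean of at least 1 CPM over the 4 libraries. Counts up to 3 were taken as not told apart from 0, and 3 is called the floor.

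The targeted gene went against its label in 1 library. DCBLD2 had 9859 counts in sc, 4259 in shDCBLD2, 7970 in the empty vector library and 4000 in the library labelled OE. It was thus lower in both shDCBLD2 and the library labelled OE than in their controls, with log2 ratios of -1.35 (-1.40 to -1.30) and -0.84 (-0.90 to -0.79). Any direction drawn from that library is a direction between libraries, and the DCBLD2 transcript was lower there and not higher. The counts give no level of DCBLD2 protein.

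The same library stood apart in which genes it held. Of the genes past the filter, 51 had more than 3 counts there and 3 or fewer in each of the other libraries, while no other library had such a gene. Of the 13966 genes, 372 passed the filter only through this library, against 77 only through sc, 57 only through shDCBLD2 and 84 only through the empty vector library. A549 and lung epithelial markers were past the filter in 16 of 16 cases, with summed levels of 41750 CPM in sc, 28210 in shDCBLD2, 36050 in the empty vector library and 38440 in the library labelled OE, and the keratin gene KRT8 was the most abundant on the mean of the libraries. Of 8 alveolar type 2 markers 1 was past the filter, the lipid transporter gene ABCA3, which made up nearly all of the summed 99.8, 84.8, 102.1 and 153.3 CPM in the same order, and SFTPA1 was at 0 in every library. Of 20 HEK293 markers, which stand for the kidney-derived line family used to make lentivirus, 17 were past the filter. NEFM, with counts of 1, 4, 0 and 221, LEF1, with 0, 0, 0 and 115, and PAX2 were among them only through the library labelled OE. Of the other 14, 6 were called higher there than in the empty vector library and 1 lower, against 4.52% and 5.5% of all genes tested without such genes. The summed HEK293 list stood at 442.7 CPM in sc, 603.9 in shDCBLD2, 367.6 in the empty vector library and 443.2 in the library labelled OE, PEG10, the most abundant on the mean of the 4, was lowest in the last, and SYT4, STMN2 and TCEAL2 were at 0 throughout. Of 10 fibroblast markers 4 were past the filter, 2 of them only through this library: the collagen genes COL1A2, with counts of 17, 1, 0 and 67, and COL3A1, with 9, 18, 6 and 68. Of the other 2 markers 0 were called there. POSTN, which did not pass the filter, had counts of 0, 0, 0 and 42. The list summed to 38.2, 59.4, 45.5 and 82.3 CPM in library order from sc to the library labelled OE, led by COL1A1, and FAP was at 0 in every library. None of the 9 blood and endothelial markers found was past the filter, and PTPRC, VWF and KDR were at 0 in every library. Among A549 markers, EPCAM and KRT19 were called higher and GCLM lower in the library labelled OE than in the empty vector library. Against sc, where 1.16% of all genes tested were called higher and 5.62% lower, shDCBLD2 had 5 of the 16 lower, CDH1, EPCAM, ALDH3A1, AKR1C1 and KRT19, 2 HEK293 markers higher and 2 lower, and the fibroblast marker COL1A2 lower. Between the controls, where 2.22% of all genes tested were called higher and 1.89% lower, PAX2, HOXD10 and THY1 were called higher with the empty vector and COL1A2 lower. PAX2 and COL1A2 entered these comparisons only through the library labelled OE. Without such genes shDCBLD2 had 2 HEK293 markers higher, 1 lower and 0 fibroblast markers called, against 1.1% and 5.08% of the genes then tested. Between the controls HOXD10 and THY1 remained, with 0 lower, against 2.01% and 1.7%. The part of these markers in the results on the 10 genes was not tested.

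In the library labelled OE, CDKN2A, CCND2 and MTAP transcripts were plentiful or clearly present where the empty vector library had none or few, while CDK6 and RB1 were lower. The DCBLD2 transcript itself was lower in that library, so none of these directions goes with more DCBLD2 transcript. Called at least 2-fold higher were 3 of the 10 genes, against 6.42% of all genes tested, and called at least 2-fold lower were 2, against 5.35%. The remaining 5 were CCND1, CCND3, CDK4, CDKN2B and CDKN2C. All but CDKN2B passed the filter on low counts, so 9 genes were tested, but CDKN2A, CCND2 and MTAP passed it only through the library in which they were high, so that they were tested because they were high there, and their count is no support for a shift of the group. When genes that passed only in that way were left out, a step added once the data had been seen, the calls were 0 higher, against 4.52% of the genes then tested, and 2 lower, CDK6 and RB1, against 5.5%.

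**Figure D1:**
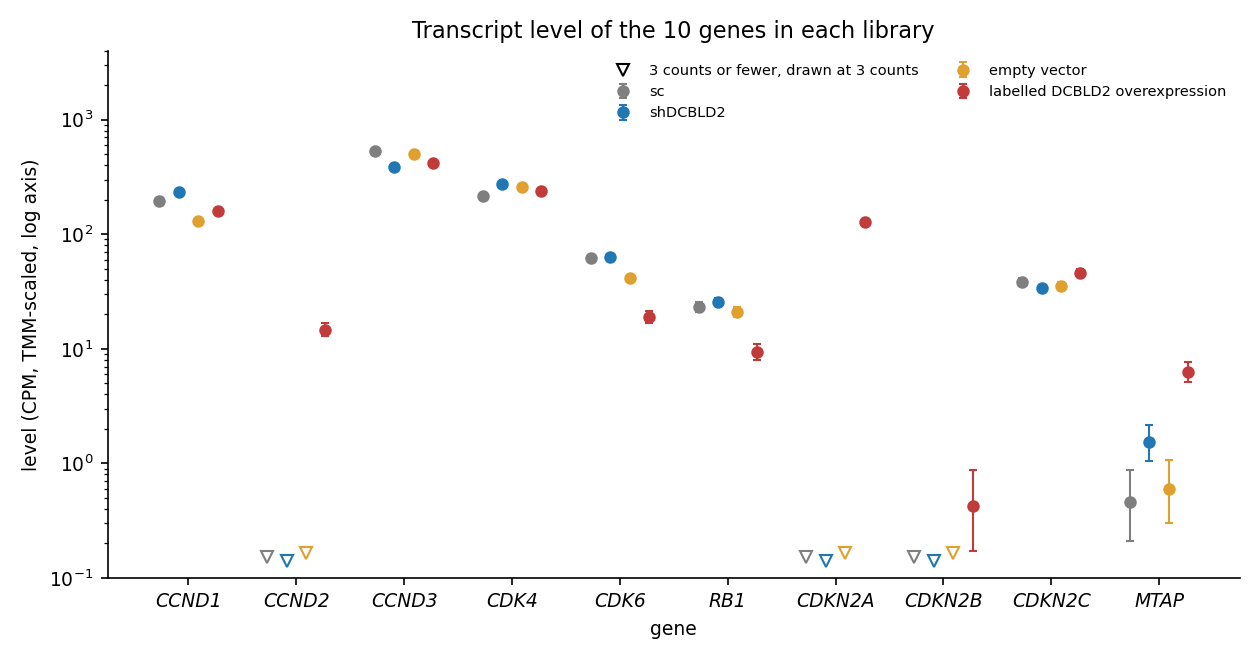
Level of each of the 10 genes in the 4 libraries, in TMM-scaled CPM on a log axis, 1 point per library with its exact Poisson 95% interval (counting error only). Open triangles stand at 3 counts for libraries with 3 counts or fewer, which holds for CCND2, CDKN2A and CDKN2B in every library but that labelled OE (drawn as DCBLD2 overexpression), where CDKN2A reached 127.5 CPM.

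Among the inhibitors, CDKN2A (ENSG00000147889) lies on chromosome 9 from 21967751 to 21995300 on the minus strand, in coordinates that came without a named genome build. It had 0 counts in sc, 0 in shDCBLD2, 0 in the empty vector library and 2104 in the library labelled OE. A single library thus held all of its reads, at 127.5 CPM (122.1 to 133), at least 779.9-fold higher than the floor of 3 counts with the empty vector, and 633.7-fold at the lower limit of the exact interval of the ratio. Per length the gene stood at 28.8 FPKM there, above 92.8% of the genes listed above 0 and close to the 32.8 FPKM of CCND1 in the same library. A count of 0 in sc allows up to 0.153 CPM at the floor of 3 counts, and the corresponding floors were 0.139 in shDCBLD2 and 0.163 with the empty vector. Counts were made per gene, so that reads of the p16 and ARF transcripts cannot be told apart, and the sources used here do not say whether counting used the strand. The antisense gene CDKN2B-AS1, which overlaps CDKN2A, had counts of 0, 0, 0 and 3.

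CDKN2B, the INK4 gene next to CDKN2A, had 0 counts in sc, shDCBLD2 and the empty vector library and 7 in the library labelled OE. That is 0.424 CPM (0.17 to 0.87), at least 2.595-fold higher than the floor with the empty vector and 1.60-fold at the lower limit of the exact interval. This is the same library that held CDKN2A, but the lower limit of the level is close to the floor. The gene did not pass the filter. CDKN2C, an INK4 gene on chromosome 1 that codes for p18, behaved in another way: it had 749, 728, 647 and 764 counts in sc, shDCBLD2, the empty vector library and the library labelled OE. All 4 libraries held it at similar levels, with a log2 ratio of 0.39 (0.24 to 0.55) for the last against the empty vector, short of the 2-fold limit.

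RefSeq promoter entries on GRCh38.p14 were matched for 8 of the 10 genes. Those upstream of the 9p21 genes are shown because these genes share a locus and yet differ in counts from each other. Each stretch runs 5′ to 3′ up to the first base that GENCODE 29 gives to an exon of the gene, or to its RefSeq start, and capitals mark the GC box GGGCGG on either strand. The CDKN2A stretch is that before the ARF start, in no exon of CDKN2A, and it overlaps an exon of a noncoding antisense gene. The p16 start lies within the gene, and its upstream bases, most of them in an exon, are not shown; that window of 250 bases held 1 GC box.
MTAP, chr9:21802386-21802542, plus strand: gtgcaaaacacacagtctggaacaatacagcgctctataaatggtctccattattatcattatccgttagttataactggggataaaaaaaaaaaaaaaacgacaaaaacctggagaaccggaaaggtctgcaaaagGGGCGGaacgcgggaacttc
CDKN2A, chr9:21995325-21995574, minus strand: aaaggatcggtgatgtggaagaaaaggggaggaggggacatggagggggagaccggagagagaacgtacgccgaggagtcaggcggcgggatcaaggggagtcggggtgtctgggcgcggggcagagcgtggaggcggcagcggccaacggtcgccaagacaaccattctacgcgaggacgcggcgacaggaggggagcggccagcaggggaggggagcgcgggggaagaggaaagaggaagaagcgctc
CDKN2B, chr9:22009364-22009555, minus strand: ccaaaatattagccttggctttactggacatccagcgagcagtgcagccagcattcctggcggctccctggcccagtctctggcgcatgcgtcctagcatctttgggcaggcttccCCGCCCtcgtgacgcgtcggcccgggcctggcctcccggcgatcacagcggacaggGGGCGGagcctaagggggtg
The MTAP stretch of 157 bases held 1 GC box, the CDKN2A stretch of 250 bases held 0 and the CDKN2B stretch of 192 bases held 2. Of the corresponding stretches of all 35116 promoters, 27.1%, 42.6% and 33.4% held the GC box. The E2F motif was searched as TTTCCCGC, TTTCGCGC, TTTGCCGC and TTTGGCGC on both strands, and none of the 3 stretches held these letters, which occurred in 1.68%, 2.79% and 2.11% of the same stretches of all promoters. A match or its absence is a description of these letters and not of a bound factor.

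Among the D-type cyclins, CCND2 changed from near absence to presence. It had 0 counts in sc, 2 in shDCBLD2, 0 in the empty vector library and 242 in the library labelled OE. Only the last library was above the floor, at 14.7 CPM (12.87 to 16.63), at least 89.7-fold higher than the floor with the empty vector, and 72.4-fold at the lower limit of the exact interval. Its antisense neighbours CCND2-AS1 and CCND2-AS2 had 0 counts in all 4 libraries.

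CCND1, the D-type cyclin that growth factor signals most directly raise, had 3806 counts in sc, 5013 in shDCBLD2, 2406 in the empty vector library and 2629 in the library labelled OE. The empty vector library was lowest and shDCBLD2 highest, so the direction for the library labelled OE depended on the control: its log2 ratio was 0.28 (0.20 to 0.36) against the empty vector and -0.29 (-0.36 to -0.22) against sc. The overlapping gene ORAOV1 had 367, 544, 338 and 284 counts, and reads that lie in both genes are uncertain. CCND3, the most abundant of the 3 cyclins, had 10404, 8349, 9245 and 6888 counts in the same order. The library labelled OE and shDCBLD2 were both below their controls in CCND3, by log2 ratios of -0.27 (-0.32 to -0.23) and -0.46 (-0.50 to -0.42). Neither ratio reached 2-fold.

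Of the kinases, CDK4 was nearly level and CDK6 was not. CDK4 had 4254 counts in sc, 5956 in shDCBLD2, 4764 in the empty vector library and 3956 in the library labelled OE. After scaling, these were between 217.4 and 276.1 CPM, with a log2 ratio of -0.11 (-0.18 to -0.05) for the library labelled OE against the empty vector that turned to 0.14 (0.08 to 0.20) against sc. CDK4 overlaps TSPAN31, which had 392, 324, 374 and 447 counts, and an entry with the symbol 9-Mar, which had 424, 295, 514 and 612, so some of its reads are uncertain.

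CDK6, the alternative partner of the D-type cyclins, had 1202 counts in sc, 1376 in shDCBLD2, 761 in the empty vector library and 313 in the library labelled OE. The last library was lowest, the empty vector library came next, and sc and shDCBLD2 did not differ beyond counting error. The log2 ratio was -1.12 (-1.32 to -0.94) against the empty vector and -1.69 (-1.88 to -1.515) against sc. RB1, the target of these kinases and the brake on E2F, had 454, 556, 386 and 154 counts in the same order. It too was lowest in the library labelled OE, with a log2 ratio of -1.16 (-1.45 to -0.90), or 2.25-fold (1.865 to 2.735) higher with the empty vector, while the other libraries lay within 21 to 25.8 CPM. Few of the genes tested had lower log2 ratios in this comparison, 3.46% for CDK6 and 2.94% for RB1. LPAR6, within RB1 on the other strand, had 10, 12, 34 and 18 counts. CDK6 and RB1 are long, with exonic sizes of 12260 and 6169 bases, and of 3 equal groups of the genes tested by exonic size the longest, from 6027 bases up, had a median log2 ratio of -0.12 in this comparison against -0.01 in the middle group and -0.02 in the shortest. For the empty vector against sc, the medians from longest to shortest were -0.17, -0.00504 and 0.16. The part of gene length in these values was not tested.

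MTAP had 9 counts in sc, 33 in shDCBLD2, 11 in the empty vector library and 104 in the library labelled OE. It was low everywhere, highest in the last library and next in shDCBLD2, and the intervals of the 2 controls overlapped. The level interval of shDCBLD2, 1.05 to 2.15 CPM, also overlapped that of the empty vector library, 0.30 to 1.07. It did not overlap that of sc, 0.21 to 0.87. In the library labelled OE MTAP stood at 6.30 CPM (5.15 to 7.63) and 0.78 FPKM, 10.5-fold (5.64 to 21.7) above the empty vector. Small noncoding entries and a tubulin pseudogene, TUBB8P1, lie within MTAP and had 4 counts or fewer in each library.

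**Figure D2:**
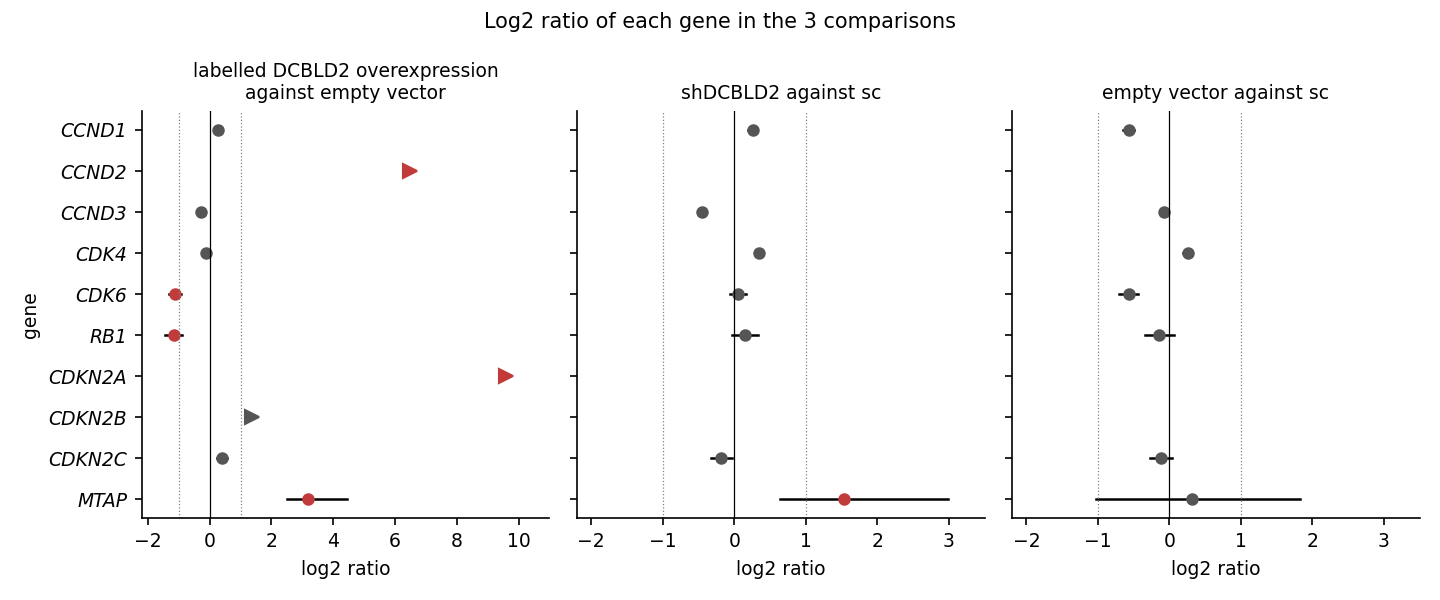
Log2 ratio of each of the 10 genes (rows) in the 3 comparisons, with exact Clopper-Pearson 95% intervals that cover counting error only, and a wider axis in the left panel. Red marks are called genes, arrowheads are lower bounds against 3 counts, dotted lines mark 2-fold, and genes with 3 counts or fewer in both libraries have no mark; CDK6 and RB1 sit left of the 2-fold line at -1.12 and -1.16.

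In the comparison of shDCBLD2 with sc the transcript of the target was lower, as labelled. CDKN2A and CDKN2B were at 0 in both libraries and CCND2 was at or under the floor in both, so no fold is given for them. MTAP was the 1 gene of 10 called at least 2-fold higher, against 1.16% of all genes tested, and 0 of 10 were called at least 2-fold lower, against 5.62%. The MTAP ratio was 3.33-fold (1.56 to 7.90) on 33 against 9 counts, and its log2 value was 1.53 (0.64 to 2.98) against sc and 1.215 (0.33 to 2.485) against the empty vector. This gene entered the comparison only through its level in the library labelled OE. Without genes of that kind 0 of the 6 members then tested were called, against 1.1% of the genes then tested higher and 5.08% lower. CDK4 and CCND1 had log2 ratios of 0.34 (0.29 to 0.40) and 0.26 (0.20 to 0.32), RB1 of 0.15 (-0.03 to 0.33), CDK6 of 0.05 (-0.06 to 0.17) and CDKN2C of -0.18 (-0.33 to -0.03). The intervals of RB1 and CDK6 included no change against sc but not against the empty vector. There shDCBLD2 had log2 ratios of 0.83 (0.76 to 0.90) for CCND1, 0.62 (0.49 to 0.75) for CDK6, 0.29 (0.10 to 0.48) for RB1 and 0.09 (0.03 to 0.14) for CDK4, so these values rest on the choice of control.

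The empty vector against sc shows how far 2 control lines lay apart. In this comparison 0 of 10 genes were called at least 2-fold higher, against 2.22% of all genes tested, and 0 of 10 lower, against 1.89%. CDKN2A, CDKN2B and CCND2 were at 0 counts in both controls and could not be called. CCND1 and the long gene CDK6 were lower with the empty vector, each with a log2 ratio of -0.57, with intervals of -0.64 to -0.50 and -0.70 to -0.44. For CCND1 that distance between controls was larger than its log2 ratios of 0.28 and 0.26 in the other comparisons. CDK4 had a log2 ratio of 0.26 (0.20 to 0.32), CCND3 of -0.08 (-0.12 to -0.04), RB1 of -0.14 (-0.34 to 0.06), CDKN2C of -0.12 (-0.27 to 0.03) and MTAP of 0.32 (-1.03 to 1.83) on 11 against 9 counts. The comparisons share the empty vector or the sc library, so their ratios are not independent of one another.

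Because cyclins and kinases act as pairs, the make-up of each family was compared per length. CCND3 and CCND1 made up nearly all D-type cyclin transcripts: CCND3 had 102.75 FPKM in sc, 73.1 in shDCBLD2, 93.2 in the empty vector library and 78.3 in the library labelled OE, and CCND1 had 41.2, 48.2, 26.6 and 32.8 FPKM. The share of CCND1 in the summed FPKM of the 3 cyclins was 28.6% (27.9 to 29.4) in sc, 39.7% (38.9 to 40.6) in shDCBLD2, 22.2% (21.4 to 23) in the empty vector library and 29.0% (28.1 to 29.9) in the library labelled OE. It was highest in shDCBLD2 and lowest with the empty vector, and sc and the library labelled OE did not differ beyond counting error. CCND2, at 2.04 FPKM, added 1.80% (1.58 to 2.04) in the library labelled OE.

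CDK4 outweighed CDK6 in all 4 libraries, with 70.3, 87.3, 80.3 and 75.2 FPKM against 5.13, 5.21, 3.32 and 1.54 in the order of sc, shDCBLD2, empty vector and the library labelled OE. The share of CDK6 in the summed FPKM of both kinases was 6.80% (6.40 to 7.22), 5.63% (5.33 to 5.95), 3.96% (3.68 to 4.27) and 2.0% (1.78 to 2.24) in that order. No 2 of these intervals overlapped, and the controls themselves differed. The lowest share was in the library labelled OE, where DCBLD2 was lower than in its control.

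**Figure D3:**
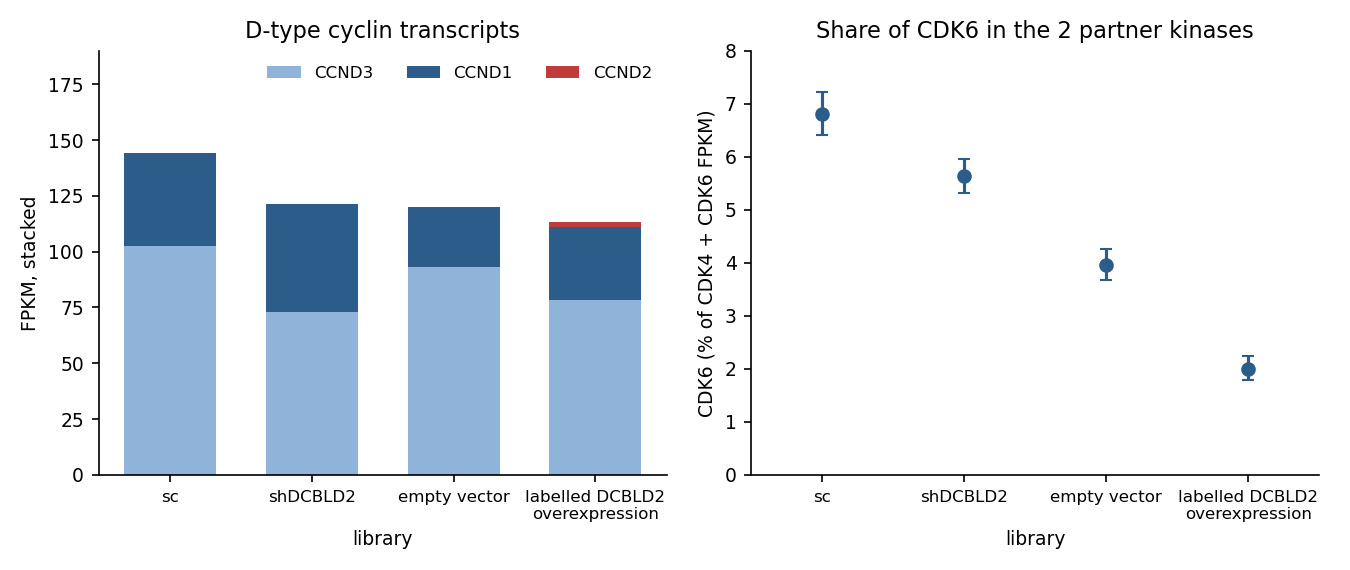
Left, deposited FPKM of CCND3, CCND1 and CCND2 stacked for each library; CCND2 is visible only in the library labelled OE, at 2.04 FPKM. Right, CDK6 as a percentage of the summed FPKM of CDK4 and CDK6 with exact 95% intervals of the counts carried to FPKM, from 6.80% in sc down to 2.0% in the library labelled OE.

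The genes around CDKN2A on chromosome 9 were read to place its counts. Within 5 Mb of its deposited start lie 131 entries, of which 34 had more than 3 counts in at least 1 library and 84 were at 0 in sc, shDCBLD2 and the empty vector library alike. From MTAP to CDKN2B there are 11 entries, and those from CDKN2A to CDKN2B were all among the 84. Towards lower coordinates, MIR31HG, a noncoding host gene of a microRNA at -512.1 kb from the start of CDKN2A, had 87 counts in sc, 103 in shDCBLD2, 84 in the empty vector library and 119 in the library labelled OE, and KLHL9, which codes for a ubiquitin ligase adaptor and lies at -638.1 kb, had 911, 918, 539 and 343. On the other side, the noncoding RP11-408N14.1 at 236 kb had 31, 27, 15 and 9 counts and DMRTA1 at 479 kb had 21, 11, 26 and 6. These genes on both sides thus had counts in all 4 libraries, and entries at 0 also lay beyond them. In the library labelled OE against the empty vector the log2 ratio was 0.64 (0.24 to 1.08) for MIR31HG, -0.50 (-0.70 to -0.30) for KLHL9, -0.50 (-1.96 to 0.70) for RP11-408N14.1 and -1.70 (-3.53 to -0.65) for DMRTA1, which did not pass the filter.

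Within these 5 Mb, only CDKN2A and CDKN2B had 0 counts in the 3 other libraries and more than 3 in the library labelled OE. ELAVL2, a neuronal RNA-binding protein gene 1722 kb away, came near to that with 1, 1, 0 and 21 counts, and SH3GL2, an endophilin gene, with 0, 0, 1 and 12. Of the 19 other neighbours past the filter, 0 were called higher in the library labelled OE than in the empty vector library, against 6.42% of all genes tested, and 2 lower, against 5.35%, HAUS6 of the spindle augmin complex at -1.14 (-1.40 to -0.90) and IFT74 of the ciliary transport machinery at -1.58 (-2.08 to -1.16). Their median log2 ratio was -0.48, against -0.04 over all genes tested. In the list of 9p21 neighbours written for this comparison, 14 of the 24 entries found were past the filter, with 0 higher and 2 lower there at a median of -0.49. In shDCBLD2 against sc 0 were called, against 1.16% of all genes tested higher and 5.62% lower, at a median of 0.01. TUSC1 was the 1 neighbour of that list called between the controls, higher with the empty vector at 1.09 (0.77 to 1.45). Of all genes tested, 2.22% were called higher and 1.89% lower there. RPS6, a ribosomal protein gene and the most abundant of that list, had 23436, 24228, 24264 and 12863 counts.

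**Figure D4:**
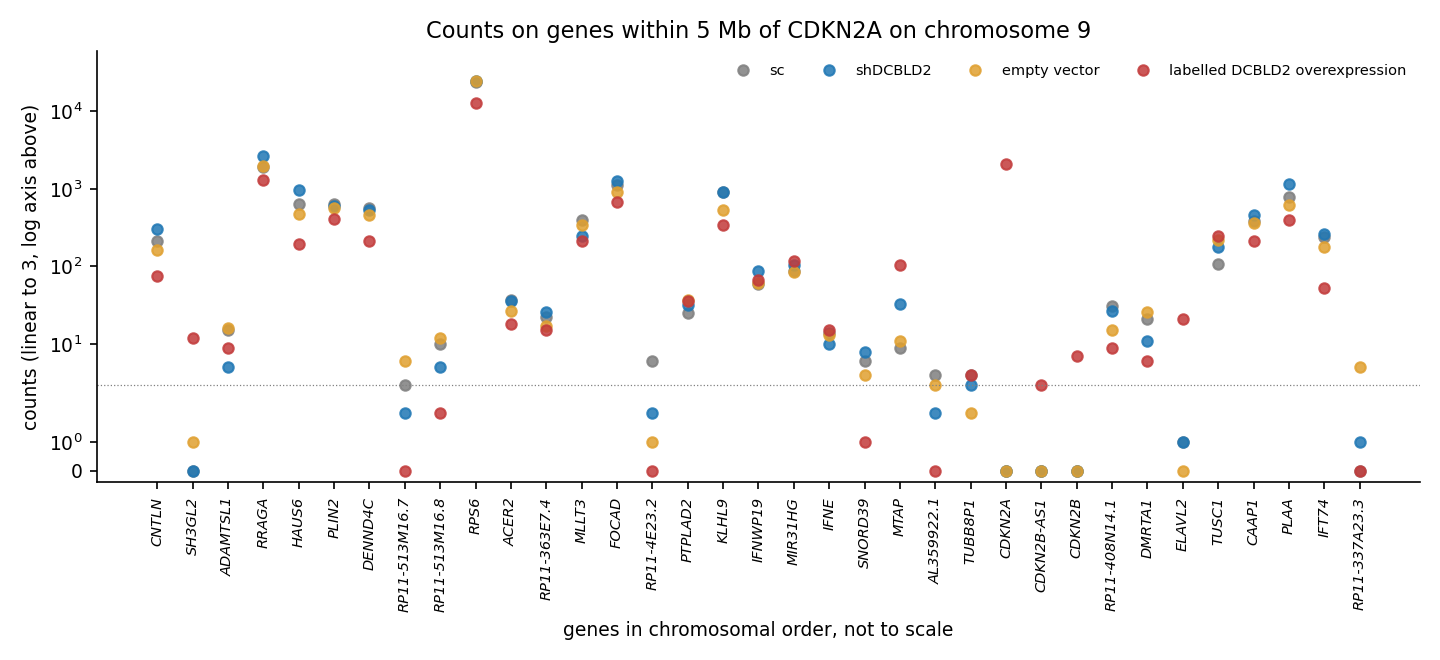
Counts in the 4 libraries on the genes within 5 Mb of CDKN2A that had more than 3 counts in at least 1 library, and on CDKN2B-AS1, in chromosomal order and not to scale; the axis is linear up to 3 counts (dotted line) and logarithmic above. CDKN2A, CDKN2B-AS1 and CDKN2B sit at 0 in sc, shDCBLD2 and the empty vector library between flanks with counts in all 4, and CDKN2A has 2104 counts in the library labelled OE.

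Other inhibitors and the relatives of RB1 were counted next, as 7 genes that were all past the filter. In the library labelled OE 0 were called higher than in the empty vector library and 2 lower, against 6.42% and 5.35% of all genes tested, RBL1, a pocket protein that represses E2F genes, at -1.24 (-1.63 to -0.90) and CDKN3, a phosphatase acting on CDK2, at -1.22 (-1.43 to -1.02). With sc as control 1 was called higher and 1 lower, against 8.08% and 8.98% of all genes tested. CDKN3 was then short of 2-fold, at 30.62 CPM in sc and 16.54 in the library labelled OE. The median log2 ratio of the list against the empty vector was 0.19, against -0.04 over all genes tested. CDKN1A, the gene of the CDK2 inhibitor p21 and the most abundant of the list, had 2498 counts in sc, 2298 in shDCBLD2, 3018 in the empty vector library and 3241 in the library labelled OE, with a log2 ratio of 0.26 (0.18 to 0.33) for the last. In shDCBLD2 against sc 0 of 7 were called in either direction, against 1.16% of all genes tested higher and 5.62% lower. The median was -0.51, against 0.01 over all genes, with CDKN2D, the remaining INK4 gene, at -0.85 (-1.27 to -0.47). With the empty vector as control 1 was called higher in shDCBLD2 and 1 lower, against 2.23% and 8.01% of all genes tested.

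The E2F side of the pathway was read against the same shares of all genes, 6.42% called higher and 5.35% lower. Of 10 E2F and DP factor genes, 1 was called in the library labelled OE, the repressor E2F8 at -1.545 (-2.09 to -1.10), while the activator E2F1 had a log2 ratio of -0.05 (-0.15 to 0.06). Of 12 genes of the cyclin E and CDK2 step, CDC25A, the phosphatase that activates CDK2, was higher at 1.88 (1.68 to 2.10), and CDK7, of the kinase that activates other CDKs, lower at -1.12 (-1.375 to -0.88). The medians of these lists were -0.03 and -0.60. With sc as control CDK7 was short of 2-fold, at 22.29 CPM in sc and 11.57 in the library labelled OE. The cyclin E step then had 1 call higher and 1 lower, against 8.08% and 8.98% of all genes tested, and the lower one was another gene. Against sc, 0 of 10 and 0 of 12 were called in shDCBLD2, against 1.16% of all genes higher and 5.62% lower. The medians were 0.21 and 0.26, and all 12 genes of the cyclin E step had log2 ratios above 0, against 50.9% of all genes, which held under the other scalings too.

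E2F target genes of S phase, 26 genes that were all past the filter, leaned in opposite ways in these comparisons. In the library labelled OE 2 were called against the empty vector, where 5.35% of all genes tested were lower, and 8 against sc, where 8.98% were. All of these were lower. Those against the empty vector were MCM6 of the replicative helicase at -1.05 (-1.17 to -0.94) and RRM1 of ribonucleotide reductase at -1.21 (-1.34 to -1.09). The list's median was -0.54 and 21 of 26 were below 0, against 52.9% of all genes tested. CCNA2, the S phase cyclin, had 1201 counts in sc, 1676 in shDCBLD2, 1004 in the empty vector library and 483 in the library labelled OE, and PCNA, the sliding clamp, had 6958, 9204, 6898 and 3620. For both genes shDCBLD2 was the highest library and the library labelled OE the lowest, and both libraries had less DCBLD2 transcript than their controls. None of the 26 was called in shDCBLD2 against sc, against 1.16% of all genes higher and 5.62% lower, and the median was 0.23 (0.39 with the empty vector as control) and 24 of 26 were above 0, against 50.9% of all genes tested. Between the controls 0 of 26 were called, against 2.22% of all genes tested higher and 1.89% lower. The median there was -0.14 and 19 of 26 were below 0, against 50.8% of all genes tested. The share of cells in S phase and the level of transcript per cell cannot be told apart in bulk RNA.

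Genes for the turnover of D-type cyclins, 11 genes past the filter, gave 2 calls higher and 1 lower in the library labelled OE, against 6.42% and 5.35% of all genes tested. CRYAB, a chaperone that works with a cyclin D1 ligase, was higher at 2.71 (2.03 to 3.845), USP2, a deubiquitinase of cyclin D1, at 1.33 (0.80 to 1.97), and FBXO4, the F-box protein of that ligase, lower at -1.29 (-1.71 to -0.92). AMBRA1, the adaptor through which D-type cyclins are marked for degradation, had 926, 849, 934 and 1081 counts, with a log2 ratio of 0.36 (0.24 to 0.49) against the empty vector. CRYAB passed the filter only through the library labelled OE, so it was tested because it was high there and its call is a description. With sc as control 2 of the list were called higher and 0 lower, against 8.08% and 8.98% of all genes tested. The FBXO4 call was lost there, at 6.80 CPM in sc and 4.54 in the library labelled OE. The list's median was 0.30 against the empty vector, and 0.14 without CRYAB, but 0.0155 with sc as control. Of these genes, 0 were called in shDCBLD2 against sc, where 1.16% of all genes tested were called higher and 5.62% lower. The median there was -0.07, but 0.006 without CRYAB and 0.09 with the empty vector as control. Between the controls, where 2.22% of all genes tested were called higher and 1.89% lower, USP2 was called higher with the empty vector, at 1.28 (0.49 to 2.37). In the other 4 pathway lists calls between the controls came to 0, against the same shares. Medians there were 0.10 for the other inhibitors, -0.18 for E2F and DP factors and -0.02 for the cyclin E step. The median for turnover was -0.16, against -0.01 over all genes tested.

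The genes most like 4 of the members were found by the distance between log2 CPM over the 4 libraries, each gene centred on its own mean. For CCND1 the nearest of 13953 genes searched were LINC01128, RELL1, ZNF142, PTPN1 and FAM168B, at distances of 0.0205 to 0.0587, and 15 genes lay within 0.1. For CCND2 the nearest were GPC3 at 0.346, NEFM at 0.634, UNCX, NPTX2 and LRRC61, all with 4 counts or fewer in each other library and 159 to 221 in the library labelled OE. CDKN2A had no gene within 0.5, and its nearest were AMOT at 1.30, with 3, 2, 0 and 1709 counts, PRDX2 at 1.74, with 7, 6, 6 and 2127 counts, MATK, IRS4 and RP6-24A23.7. MTAP was nearest to GAL at 0.2125, a neuropeptide gene with 28, 87, 38 and 304 counts, followed by COL3A1 at 0.624, C15orf27, BCL11A and LINC00665. The 4 libraries are few points for such a distance, and it says nothing of shared control.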

How the data were processed

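Deposited by the authors were a count of reads for every gene, without normalization, and FPKM made from these counts, exonic gene size and library total, for 57905 genes in 4 libraries of poly(A) RNA. The aligner, counter and strand setting are not given in the sources used here; the submitters' processing notes list the mouse build mm9, although the gene identifiers are human, so coordinates are printed as deposited. Counts were scaled by TMM (edgeR 4.0.16, R 4.3.3) or, as an alternative, by size factors (DESeq2 1.42.0), with a prior count of 2. Promoters and figures used Python with matplotlib. A symbol on several entries was taken as its entry of highest total. The members and lists were chosen with earlier results of these data known. Named genes were the members, DCBLD2, the 3 highest and 3 lowest called genes of each list and comparison, textbook genes of the lists, neighbours of CDKN2A and the 5 nearest genes, a search that left out XIST and Y-linked genes. Alternatives were other scalings, prior counts of 0.5 and 5, the other control, counts drawn down to the smallest total, a 1.5-fold limit, and no filter or a mean of at least 5 CPM. A list of methionine salvage genes, and leaving out genes past the filter only through the library labelled OE, were added after seeing the data.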

Additional observations from a re-analysis of the deposited data

How the results depend on the processing

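No paired analysis was possible because each condition had 1 library. Of the 10 genes, 5 were called in the library labelled OE against the empty vector and the same number under the other scalings, prior counts, control and drawn-down counts. It was 3 when 5 CPM was asked for and 2 without genes past the filter only through the library labelled OE, an alternative added after seeing the data. In shDCBLD2 against sc the 1 call was 0 under both of these. By construction, these filters drop CCND2 and MTAP, and the second also CDKN2A. Over all genes, 1644 were called in the first comparison, but 4273 at 1.5-fold, 2883 with no filter and 832 at 5 CPM. In shDCBLD2 against sc 947 were called, but 1430 against the empty vector, 2307 at 1.5-fold, 1689 with no filter and 397 at 5 CPM. Between the controls 574 became 1919, 1118 and 180.

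With sc in place of the empty vector for the library labelled OE, calls rose from 1 to 2 among E2F and DP factors. Among E2F target genes they rose from 2 to 8, and over all genes from 1644 to 2382. Calls in D cyclin turnover fell from 3 to 2, with FBXO4 lost, and the median of that list fell from 0.30 to 0.0155. Other inhibitors went from 0 higher and 2 lower to 1 higher and 1 lower, with CDKN3 lost. The cyclin E step stayed at 2 calls, but with another gene in place of CDK7. With the empty vector as control for shDCBLD2, calls rose from 0 to 2 among other inhibitors, 1 in the cyclin E step and 1 in D cyclin turnover, and the medians of E2F targets and turnover went from 0.23 to 0.39 and from -0.07 to 0.09. The cause was not tested. By counts in place of FPKM, the CCND1 share was 26.8% in sc, 37.5% in shDCBLD2, 20.65% in the empty vector library and 26.9% in the library labelled OE, since CCND1 is the shorter gene. Of 137 log2 ratios of members under alternatives, 125 stayed within the interval of the reported value, 12 moved out of it and 0 of the called genes changed sign. For CCND2, CDKN2A and CDKN2B in the library labelled OE that interval has no upper end, so a rise could not count as a move. Their log2 ratios against the empty vector were 7.13, 10.24 and 2.33. With a prior count of 0.5 they were 9.12, 12.24 and 4.10, and with 5 they were 5.83, 8.92 and 1.385. With sc as control the uncalled CCND1 went from 0.28 to -0.29 and CDK4 from -0.11 to 0.14. With no filter CDKN2B was called too.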

Other observations

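A list added after the members' values were seen covers the partners of MTAP. Of 17 genes of methionine salvage, polyamine synthesis and the PRMT5 complex, 16 were past the filter and 0 were called in any of the 3 comparisons. The shares of all genes called higher and lower were 1.16% and 5.62% in shDCBLD2 against sc. They were 6.42% and 5.35% in the library labelled OE against the empty vector, and 2.22% and 1.89% between the controls. The 16 genes had a median log2 ratio of 0.41 in shDCBLD2 against sc, with 15 of 16 above 0 (13 of 16 with library totals as scaling), against a median of 0.01 and 50.9% above 0 over all genes. Their median was -0.17 in the library labelled OE against the empty vector, with 6 above 0 and 10 below, against 52.9% of all genes tested below 0. MAT2A, which makes the methyl donor of PRMT5, was the most abundant on the mean of the libraries, with 4501 counts in sc, 6793 in shDCBLD2, 3795 in the empty vector library and 4231 in the library labelled OE. In shDCBLD2 the spermine synthase gene SMS stood at 0.93 (0.85 to 1.01) and ODC1, the first enzyme of polyamine synthesis, at 0.82 (0.76 to 0.88), both short of 2-fold. MRI1, the isomerase of methionine salvage, stood at 0.93 (0.79 to 1.08) in the library labelled OE.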
